A study of Mus musculus with 9 samples.

Results

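The genes described here carry the signal from receptors through Ras to ERK, or answer to it, in mouse embryonic stem cells (mESCs) differentiating towards neural cells with retinoic acid (RA) or its vehicle. They were chosen by name, as 8 genes: Shc1, Hras, Map2k1, Rps6ka1, Dusp6, Spry2, Spry4 and Fos, most of which the study placed in its second gene set. Of these, 6 had a probe in the probe-gene table, with 9 probes among the 46643 on the array and 6 genes among the 19406 named there. Hras and Rps6ka1 had no probe in that table and were not analysed here.

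The cells came from 1 mESC line, called G6B-2 in the labels and B6G-2 in the study's text, and each condition was profiled on an Illumina MouseWG-6 v1.0 array at a day of differentiation (DoD). The 9 conditions were undifferentiated cells on DoD 0, embryoid bodies on DoD 2 before any RA, DoD 8 cells that had received vehicle (named C) or RA at 1 nM (named R9), at 10 nM (R8) and at 100 nM (R7), and DoD 36 cells that had received C, R8 or R7. RA or vehicle, given in the labels as 0.1% ethanol, was present only from DoD 2 to DoD 6, so that the DoD 36 cells had been without RA for weeks. The last stage is day 29 in the labels and DoD 36 in the study's text, whose name for it is kept here. There was 1 array per condition. RNA of 6 biological replicates was mixed before hybridisation, except that nothing beyond its label is known of the R9 array. The spread between replicates is therefore not in the data, and no p-value is given for any difference.

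Receptor tyrosine kinases recruit adaptors such as Shc1, which bring an exchange factor to Ras, and Ras then activates a chain of kinases, Raf, MEK and ERK. ERK acts on transcription factors, among them the ETS family, and induces immediate early genes such as Fos within minutes. It also induces its own inhibitors, the Sprouty and Spred proteins and the phosphatase Dusp6, whose RNA is widely used as a readout of the pathway. In mESCs the pathway, driven by FGF4, is known for moving cells out of the pluripotent state and making them competent for lineage choice. RNA levels of these genes do not measure the phosphorylation of ERK.

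Signals below are scaled so that the median over 16146 probes detected on all 9 arrays is equal between arrays, and their unit is arbitrary. A probe was called detected on an array at an unscaled signal of at least 29.1, the median over arrays of the 99th percentile of probes that sat at the floor elsewhere. A gene is represented by its brightest probe, and a difference of at least 2-fold was counted as a call. As a yardstick of array-to-array scatter, the robust SD of the log2 difference between R9 and C on DoD 8 was taken in probes of like signal. It ran from 0.574 among dim probes to 0.152 among the brightest, and whatever 1 nM RA did is part of it. The scatter between DoD 36 arrays could not be measured, so multiples of the yardstick on that day are only a rough guide. The 99th percentile of background was 24.7 to 32.2 on 7 arrays, but 56.0 on the R8 array and 77.6 on the R7 array of DoD 36, so that dim signals on those 2 arrays are the least certain.

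Of the 9 probes, 5 were detected on all 9 arrays, 1 each for Shc1, Map2k1, Dusp6, Spry4 and Fos. The only Spry2 probe (5860184) was detected on none and sat at the floor on 6 arrays, as did Shc1 probe 3170504. Spry2, a receptor signalling inhibitor, therefore has no difference here, which does not show that the gene was silent.

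**Figure D1:**
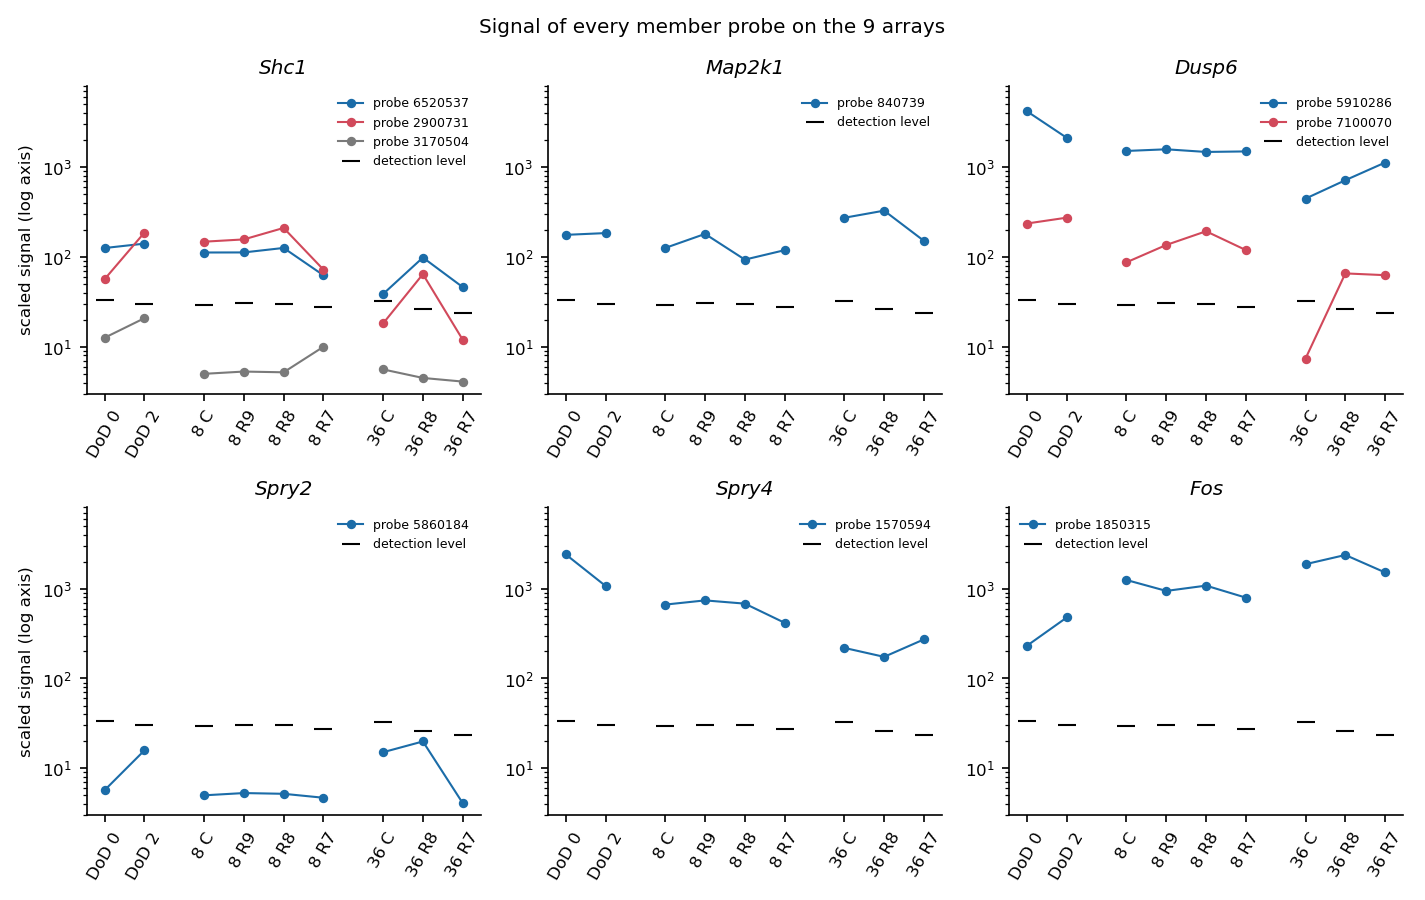
Scaled signal (log axis, arbitrary unit) of every probe of the 6 genes on the 9 arrays, 1 array per condition, with C, R9, R8 and R7 marking vehicle and 1, 10 and 100 nM RA. Horizontal dashes mark the detection level on each array. Spry4 and the brightest Dusp6 probe were highest on DoD 0 and Fos lowest there, the second Dusp6 probe was highest on DoD 2, and the Spry2 probe stayed below the detection level throughout.

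The stretches of 250 bases before the annotated start of Fos, Dusp6 and Map2k1 are shown because the first pair moved in opposite directions over the time course and the third is the kinase among the members with a probe. They come from RefSeq on the GRCm38.p6 build, and are written along the strand of the gene. Each was searched on both strands for TGACGT (the core of a cAMP response element), CCGGAAG (an ETS motif), TGANTCA (the AP-1 motif) and AGGTCA (the repeat unit of retinoic acid receptor elements). Some of these share letters, but no match overlapped another here. Matches are in capitals.
Fos, chr12:85473640-85473889, plus strand: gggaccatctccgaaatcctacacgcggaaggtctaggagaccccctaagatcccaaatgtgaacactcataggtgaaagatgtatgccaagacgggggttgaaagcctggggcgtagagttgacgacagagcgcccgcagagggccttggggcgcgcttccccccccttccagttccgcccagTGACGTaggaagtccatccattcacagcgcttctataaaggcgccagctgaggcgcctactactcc
Dusp6, chr10:99262981-99263230, plus strand: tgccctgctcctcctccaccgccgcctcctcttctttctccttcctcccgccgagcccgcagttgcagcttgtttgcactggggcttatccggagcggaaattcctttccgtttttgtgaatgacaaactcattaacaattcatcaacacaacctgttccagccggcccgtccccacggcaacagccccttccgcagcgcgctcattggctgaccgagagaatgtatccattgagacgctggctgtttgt
Map2k1, chr9:64253606-64253855, minus strand: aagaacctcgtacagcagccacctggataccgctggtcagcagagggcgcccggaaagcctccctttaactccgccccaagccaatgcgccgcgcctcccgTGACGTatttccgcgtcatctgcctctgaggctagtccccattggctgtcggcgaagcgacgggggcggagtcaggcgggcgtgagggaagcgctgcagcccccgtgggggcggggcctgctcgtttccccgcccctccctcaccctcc

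TGACGT lay 66 bases before the Fos start and 149 bases before the Map2k1 start, and 6.56% of 27025 promoters of the same length held it. The Dusp6 stretch held none of the 4 motifs. CCGGAAG was found in 7.05% of all promoters, TGANTCA in 6.87% and AGGTCA in 13.8%, and none of these was found in the 3 stretches. These matches describe letters and not sites in use.

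Before RA was given, Spry4 was more than 2-fold lower and Fos more than 2-fold higher on DoD 2 than on DoD 0. Spry4, an inhibitor of receptor signalling that ERK induces, had a signal of 1070.8 on DoD 2, against 2402.2 on DoD 0, a log2 difference of -1.17. Dusp6, the phosphatase that acts on ERK itself, had 2118.4 on DoD 2, against 4180.3 on DoD 0, a log2 difference of -0.98 that lay just short of 2-fold and at 5.4 times the yardstick. Fos, the immediate early transcription factor, had 477.6 on DoD 2, against 231.6 on DoD 0 (log2 difference 1.04). The members thus held 1 call in each direction among 5 measured, where 10.8% of 12570 genes were called either way, 6.07% higher and 4.74% lower.

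The probes of a gene did not always move together over this step. The second Dusp6 probe (7100070) had 273.9 on DoD 2, against 235.7 on DoD 0, so that the lower signal was seen with the brighter probe alone. Shc1, the adaptor, had 140.7 on DoD 2, against 125.7 on DoD 0, with its brightest probe (6520537), but 186.4 against 56.5 with probe 2900731 (log2 difference 1.72). Map2k1, which encodes the kinase MEK1, differed by only 0.07 on the log2 scale.

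From DoD 2 to vehicle on DoD 8, Fos was higher again and was the only member called, where 10.8% of 12808 genes were. Its signal was 1247.1 on DoD 8 C, against 477.6 on DoD 2, a log2 difference of 1.38. Spry4 had 664.2 on DoD 8 C, against 1070.8 on DoD 2 (log2 difference -0.69), and Dusp6 had 1513.6 against 2118.4 (-0.48). The second Dusp6 probe had 87.2 on DoD 8 C, against 273.9 on DoD 2 (-1.65), so that its lower signal came at this step instead of the earlier one.

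On DoD 8, 2 days after RA was removed, Dusp6 showed no dose order with its brightest probe. Its signals were 1513.6 with C, 1579.5 with R9, 1475.7 with R8 and 1495.7 with R7, all within 0.06 of C on the log2 scale and below the yardstick SD of 0.212. The second Dusp6 probe had 87.2 with C, 136.0 with R9, 193.2 with R8 and 119.3 with R7, so that all RA arrays lay above C and the middle dose was highest (log2 difference 1.15 for R8 over C). The 2 probes disagree at R8 by more than the yardstick of either.

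Spry4, Fos and Shc1 were lowest at 100 nM RA among the DoD 8 arrays. Spry4 had 664.2 with C, 739.6 with R9, 680.7 with R8 and 416.5 with R7, so that only the highest dose stood apart (log2 difference -0.67 for R7 over C, 2.7 times the yardstick). Fos had 1247.1 with C, 942.8 with R9, 1080.1 with R8 and 793.6 with R7 (log2 difference -0.65 for R7 over C, 3.1 times the yardstick), and all 3 RA arrays lay below C. Shc1 had 112.1 with C, 112.3 with R9, 126.0 with R8 and 62.6 with R7, and the log2 difference of R7 over C was -0.84 with this probe and -1.03 with probe 2900731.

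Map2k1 had 126.0 with C, 180.5 with R9, 93.4 with R8 and 119.0 with R7 on DoD 8, with no order by dose. No member was called with R9, R8 or R7 against C, where 3.69%, 5.27% and 9.04% of the genes measured were called. R7 against R8 called Shc1 alone, at a log2 difference of -1.01, where 6.43% of genes were called. That call is at the threshold, and it was not met under 4 of the 6 other ways of processing.

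The DoD 8 arrays also differed in markers of other cell states. The summed signal of 7 pluripotent cell markers was 51394.8 with C, 57151.0 with R9, 40266.0 with R8 and 25458.8 with R7, and 6 of the 7 were at least 2-fold lower with R7 than with C. The sum over 6 mesenchyme markers was 1237.5 with C, 1378.4 with R9, 1753.3 with R8 and 6272.8 with R7. The sum over 6 neural progenitor markers was 2070.0 with C, 2564.4 with R9, 2634.4 with R8 and 4386.2 with R7. These sums were furthest from C at 100 nM, where Spry4, Fos and Shc1 were lowest. The sum over 6 endoderm markers was 1520.3 with C, 3203.8 with R9, 5406.8 with R8 and 5750.8 with R7. It was thus already near its R7 value with R8, where Spry4 and Shc1 were not lower than with C. The part of all these shifts in the values of Spry4, Fos and Shc1 was not tested. In such mixed samples, fewer cells of a type and less RNA per cell cannot be told apart.

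**Figure D2:**
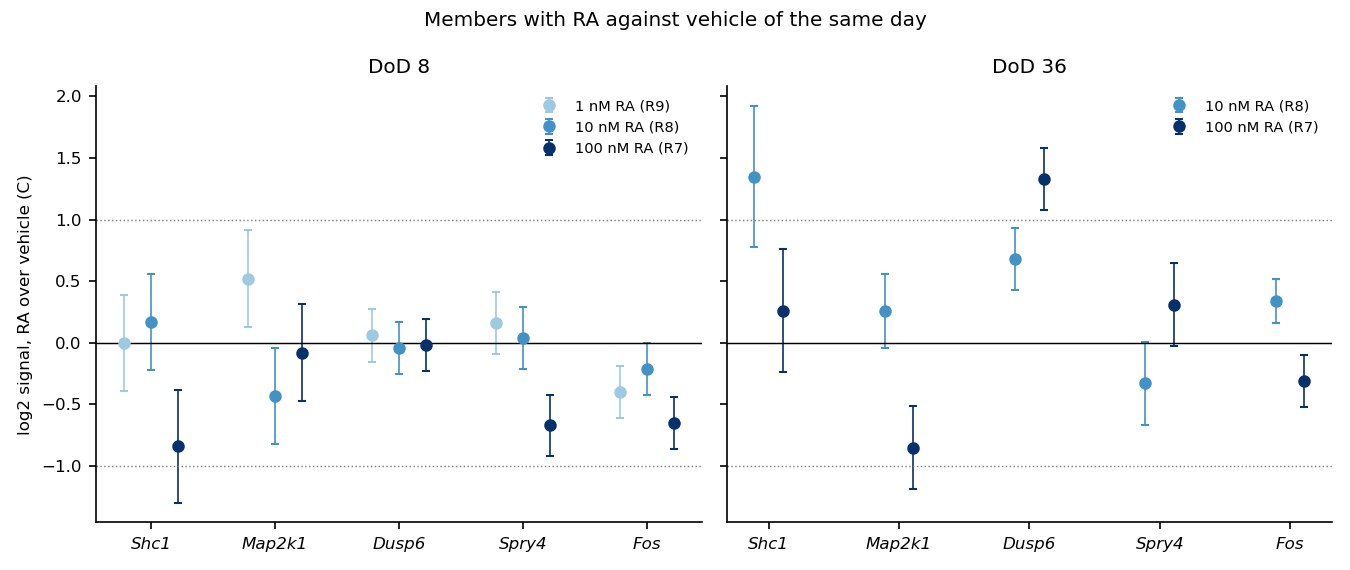
Log2 signal with RA over vehicle of the same day for the brightest probe of each detected gene, on DoD 8 (left) and DoD 36 (right). Points are single arrays, bars are 1 yardstick SD, not replicate error, and dotted lines mark 2-fold. Dusp6 lay at 0 on DoD 8 and at 1.33 with 100 nM RA on DoD 36.

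Over the long interval from DoD 8 to DoD 36 in vehicle cultures, most members differed by more than 2-fold. Dusp6 had 446.2 on DoD 36 C, against 1513.6 on DoD 8 C (log2 difference -1.76). Spry4 had 218.9 on DoD 36 C, against 664.2 on DoD 8 C (-1.60). Shc1 had 38.7 on DoD 36 C, against 112.1 on DoD 8 C (-1.53), and was close to the detection level on DoD 36.

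Map2k1 was the only one that went the other way past 2-fold, with 273.0 on DoD 36 C, against 126.0 on DoD 8 C (log2 difference 1.12). This call was lost without scaling, at 0.96, and with a detection signal of 100, at 0.95. Fos had 1870.7 on DoD 36 C, against 1247.1 on DoD 8 C (0.58). In all 4 of 5 measured members were called, 1 higher and 3 lower, in a comparison where 39.3% of 13031 genes were called, 22.7% higher and 16.5% lower. Set against undifferentiated cells, DoD 36 C cells had a log2 difference of -3.23 for Dusp6, -3.46 for Spry4 and 3.01 for Fos, where 45.9% of all genes measured differed by at least 2-fold.

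On DoD 36, Dusp6 was higher the more RA the cells had received weeks before. Its signal was 446.2 in C, 714.9 in R8 and 1124.8 in R7. The log2 difference was 0.68 for R8 over C and 1.33 for R7 over C, at 2.7 and 5.4 times the yardstick. The second Dusp6 probe was below detection with C, at 7.4, and had 65.6 with R8 and 62.7 with R7, so that it was at least 2.02-fold higher with R8 and at least 1.92-fold higher with R7 than with C. Its R7 signal, however, did not exceed the 99th percentile of background on that array.

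Spry4 did not share that order. It had 218.9 in C, 174.0 in R8 and 272.1 in R7, differences of no more than about 1 yardstick SD from C. The log2 difference of R7 over C was 0.31 and became 0.78 when the arrays were not scaled.

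Shc1 was highest at the middle dose, and Map2k1 was lowest at the highest dose. Shc1 had 38.7 in C, 98.5 in R8 and 46.2 in R7, a log2 difference of 1.35 for R8 over C and -1.09 for R7 over R8. The first fell to 0.90 with a detection signal of 50, and the second was -0.94 without scaling, so that each call was lost there. Probe 2900731, with 18.2 in C, 64.4 in R8 and 12.0 in R7, was likewise highest in R8, but it was detected on that array alone, at least 1.98-fold above C. The R7 signals of both Shc1 probes lay within the background of their array. Map2k1 had 273.0 in C, 327.8 in R8 and 151.2 in R7, and the log2 difference was -0.85 for R7 over C and -1.12 for R7 over R8. Without scaling these Map2k1 values were -0.39 and -0.96, so that the call between doses was lost, and with the 0.75 quantile R8 over C was 0.01.

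Fos had 1870.7 in C, 2368.9 in R8 and 1513.0 in R7 on DoD 36. The log2 difference of R7 over C was -0.31 and turned to 0.16 without scaling, so its direction is not settled, while R8 over C was 0.34 and stayed above 0 in every alternative run. In counts, R8 against C called 1 of 5 members (Shc1) and R7 against C called 1 (Dusp6), where 19.8% and 25.0% of genes were called, and R7 against R8 called 2, both lower, where 14.9% were, 7.67% higher and 7.23% lower. Against C, the shares of members called are thus near those of all genes, and rest on 1 gene each.

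The DoD 36 arrays differed widely in cell type markers. The summed signal of 6 astrocyte markers was 1191.6 in C, 9164.7 in R8 and 39192.5 in R7, the same order as Dusp6, and that of 6 mesenchyme markers was 5972.5, 11987.7 and 33967.9. The sum over 6 endoderm markers was 56620.6 in C, 49985.2 in R8 and 20901.2 in R7. The 7 neuron markers summed to 2983.2 in C, 7302.2 in R8 and 2020.9 in R7, highest at the middle dose as was Shc1. Within that list, however, Tubb3 was lowest in R8 and Map2 highest in R7. Cardiac muscle markers summed to 6442.1, 11573.2 and 2051.7, also highest in R8. That list was split too, as Myl7 was highest in C (3272.9, 1993.5 and 530.0) and the dim Nkx2-5 in R7. Tnnt2 had 2256.2, 6439.8 and 1062.0. Sums over neural progenitor markers (1418.2, 10831.5 and 15287.9) and oligodendrocyte markers (3274.4, 16089.8 and 25061.3) had the order of Dusp6 as well. The oligodendrocyte sum, however, was mostly Olig1 (2569.0, 14635.9 and 23616.8), and Olig2 shared its order. With their brightest probes, Mbp (625.8, 979.0 and 563.3) and Sox10 (5.6, 155.0 and 84.6) were highest in R8, and Mog was highest in C. Of the astrocyte list, S100b was at the floor with C, and the part of such shifts in the members' values was not tested.

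The other genes of the pathway give the setting. Of 14 adaptors, exchange factors and Ras genes, 12 had a probe, and their median log2 difference from DoD 8 C to DoD 36 C was 0.65, against 0.15 for all genes. Where 39.3% of all genes were called, only Mras, a Ras relative, was called among these 12, at 2486.1 on DoD 36 C, against 1181.8 on DoD 8 C. Among 7 kinases measured in that comparison 2 were higher and 1 lower, where 22.7% of all genes were higher and 16.5% lower. Mknk1, a kinase that ERK activates, had 2845.1 on DoD 36 C, against 606.4 on DoD 8 C, and Mknk2 had 8120.5 against 2919.1. Rps6ka3, which encodes the ERK-activated kinase RSK2, had 114.2 on DoD 36 C, against 1086.9 on DoD 8 C, and stayed low with RA, at 128.7 with R8 and 150.9 with R7.

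Among the ERK targets and feedback genes, Etv5 and Etv4, ETS factors of the PEA3 group, were far lower late in vehicle cultures. Etv5 had 73.9 on DoD 36 C, against 2622.9 on DoD 8 C, a log2 difference of -5.15, and Etv4 had 83.5 against 1057.6 (-3.66). Both were higher with RA on DoD 36, in order of dose. Etv5 had 73.9 in C, 288.3 in R8 and 580.9 in R7 (log2 difference 2.98 for R7 over C), and Etv4 had 83.5, 144.6 and 273.2 (1.71).

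Spred1, an inhibitor of the step from Ras to Raf, followed the same order with its brightest probe on DoD 36, at 471.3 in C, 1127.9 in R8 and 2054.7 in R7 (log2 difference 2.12 for R7 over C). Its second probe was higher by less, 0.78 with R8 and 0.71 with R7 over C on the log2 scale. Ccnd1, which encodes cyclin D1, had 1094.0 in C, 3388.9 in R8 and 2850.9 in R7, and its 4 probes were all higher with both doses, by 0.40 to 1.63 with R8 and by 0.64 to 1.95 with R7. Spry1, a further Sprouty gene, had 40.1 in C, 117.6 in R8 and 75.3 in R7.

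Other feedback genes did not share that direction on DoD 36 with their brightest probes. Spry3, another Sprouty gene, had 95.8 in C, 58.4 in R8 and 13.9 in R7, which was below detection, so that the log2 difference of R7 over C was at most -2.02 with this dim probe. Spred2, a relative of Spred1, had 82.3 in C, 8.5 in R8 and 115.5 in R7, and was below detection in R8 only (at most -1.64 for R8 over C), with a log2 difference of 0.49 for R7 over C. Dusp4, a nuclear phosphatase that acts on ERK, had 265.1 in C, 163.0 in R8 and 159.2 in R7 with its brightest probe. Its probe 100630110 went the other way, with log2 differences of 0.27 for R8 and 0.41 for R7 over C. Dusp4 probe 2850593 was below detection in C and had 37.9 in R8 and 35.5 in R7, within the background of those arrays. Dusp5, a phosphatase of the same kind as Dusp4, had 5112.8, 3118.9 and 3296.5. The brightest Dusp4 probe and Dusp5 were all short of 2-fold from C.

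The probes of Etv1 disagreed. The brightest had 69.8 in C, 286.4 in R8 and 316.6 in R7 on DoD 36 (log2 difference 2.18 for R7 over C), while probe 5080463 had 34.0, 135.6 and 47.0 (0.47). Etv1 probe 70735 had 94.8 in R8 and was below detection in C and in R7. All 3 Etv1 probes were thus higher with R8 than with C, but they did not agree at R7.

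The 6 other Fos and Jun genes of the target list were grouped after their values were seen. With their brightest probes, all were at least 2-fold higher on DoD 36 C than on DoD 8 C, where 22.7% of all genes were. With the mean of the probes 5 were, as Fosl2 had a log2 difference of 0.79. Fosl2 probe 6520433 had 53.9 on DoD 36 C, against 53.8 on DoD 8 C. Junb had 2793.8 on DoD 36 C, against 442.1 on DoD 8 C (log2 difference 2.66), and Jund had 1987.7 against 457.0 (2.12). Fosl1 had 253.7 on DoD 36 C and was not detected on DoD 8 C, so it was at least 3.12 higher on the log2 scale. Both RA doses of DoD 36 were set against the same C array. There, 8.57% of all genes were at least 2-fold lower with R8 than with C, and 12.3% with R7. Of the 6 genes 3 were, at either dose. With the 0.75 quantile or the deposited values 4 were, at either dose, and with the mean of the probes 4 were with R7. Junb had 877.7 with R8 and 1143.8 with R7, against 2793.8 with C, and Jund had 736.0 with R8 and 574.1 with R7, against 1987.7 with C. Fosl1 had 77.0 with R8 and 85.4 with R7, against 253.7 with C. The others did not reach 2-fold with their brightest probes. Their log2 differences for R8 and R7 over C were -0.89 and -0.42 for Jun, -0.48 and -0.81 for Fosl2 and -0.22 and -0.37 for Fosb. Fosb probe 1940142 had -0.41 and -1.72, and Fosl2 probe 6520433 had -0.07 and 0.13. Without scaling, the Junb value for R7 over C was -0.83, short of 2-fold, and 1 of the 6 lay above 0 with R8 and 2 with R7. Fos itself was not lower with R8.

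**Figure D3:**
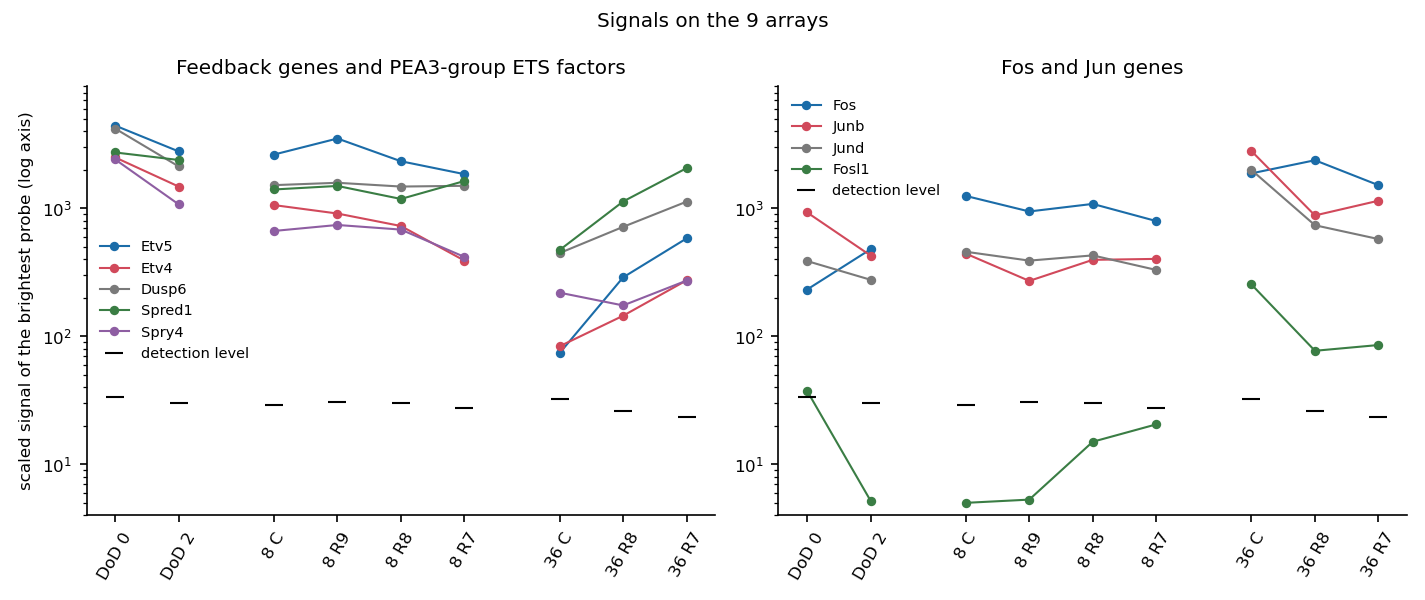
Scaled signal of the brightest probe (log axis, arbitrary unit) on the 9 arrays, with 1 array per condition and dashes at the detection level. On the left are the feedback genes Dusp6, Spred1 and Spry4 and the PEA3-group ETS factors Etv4 and Etv5. On the right are Fos, Junb, Jund and Fosl1. Etv1 and the other feedback, Fos and Jun genes are not drawn. On DoD 36, Etv5, Etv4, Dusp6 and Spred1 were lowest with C and highest with R7, whereas Junb, Jund and Fosl1 were highest with C.

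On DoD 8, Etv4 and Etv5 were not higher with 10 or 100 nM RA. Etv4 had 1057.6 with C, 908.5 with R9, 725.9 with R8 and 389.8 with R7, lower at each dose step (log2 difference -1.44 for R7 over C). Etv5 had 2622.9 with C, 3501.2 with R9, 2326.2 with R8 and 1844.3 with R7 (-0.51 for R7 over C).

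As whole lists, the pathway genes did not move one way with RA on DoD 36. For R7 over C, 1 of 11 measured feedback genes was called higher and 1 lower, with a median log2 difference of -0.63, and 5 of 20 targets were called higher and 3 lower, with a median of -0.19, against -0.31 for all genes, of which 12.7% were called higher and 12.3% lower. For R8 over C, 2 of 12 feedback genes were higher and 1 lower, and 4 of 19 targets were higher and 3 lower, with 11.2% of all genes higher and 8.57% lower. From DoD 8 C to DoD 36 C, 9 of 18 targets were higher and 4 lower, and 1 of 11 feedback genes was higher and 3 lower, where 22.7% of all genes were higher and 16.5% lower.

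**Figure D4:**
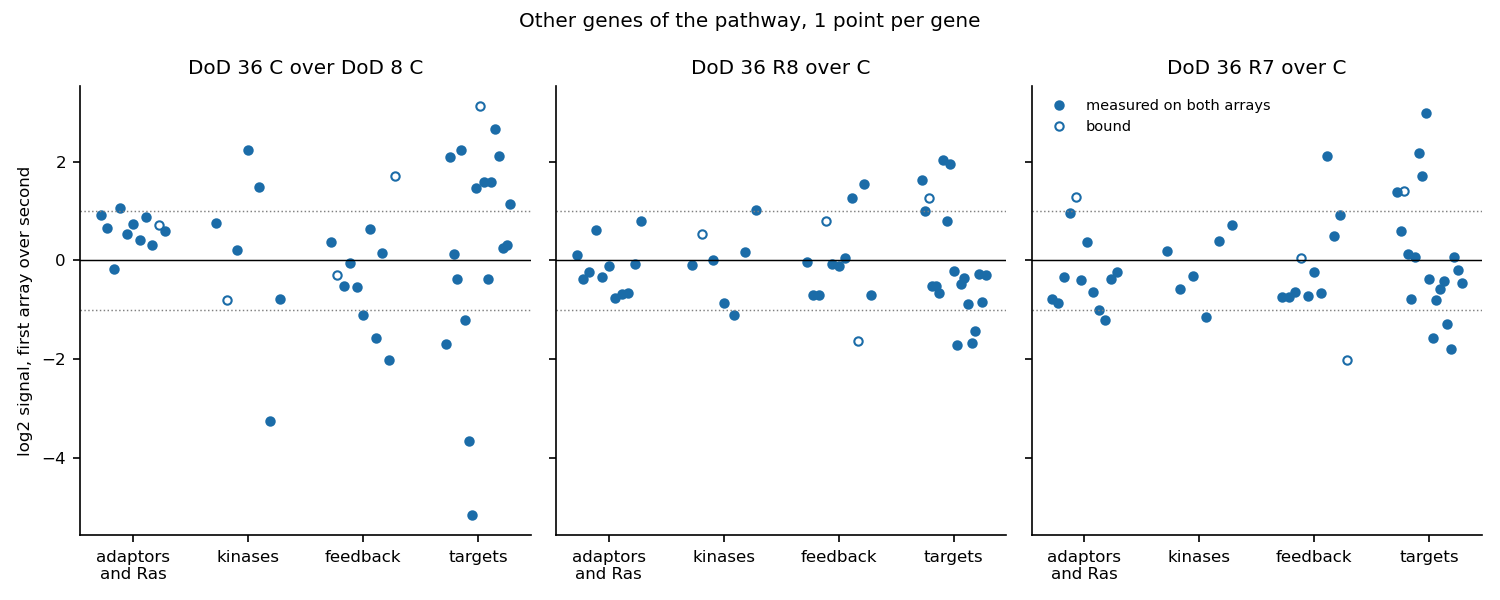
Log2 difference (first array over second) of the other pathway genes, 1 point per gene, in 4 lists and 3 comparisons, with open points for bounds and dotted lines at 2-fold. Targets spread from -5.15 to 3.12 over time in vehicle cultures, and the lists held genes on both sides of 0 with RA.

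Across the 9 arrays, the log2 signals of Dusp6 and Spry4 had a Pearson correlation of 0.93, and Fos correlated at -0.91 with Dusp6 and -0.93 with Spry4. These arrays share 1 course of differentiation, so the values describe the course and not a link between genes. Among 5017 genes that were detected on all arrays and varied, the nearest patterns were Nkd2, Rims2 and Mapk12 for Dusp6 (0.985, 0.982 and 0.972), Noc4l, Adarb1 and Def6 for Spry4 (0.99, 0.989 and 0.986) and Anxa1, Lgals3 and Lims2 for Fos (0.989, 0.985 and 0.983). For Shc1 they were Katnbl1, Rbm5 and Uqcc1 (0.963, 0.944 and 0.942), and for Map2k1 they were Napb, Sik2 and Slc25a4 (0.943, 0.941 and 0.921).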

How the data were processed

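RNA of 9 conditions was measured on Illumina MouseWG-6 v1.0 arrays, 1 array each. Per the labels and the study's methods, the authors normalized in GeneSpring GX10.02 and deposited log2 values, centred per array and per probe. A test on 1000 probes gave whole-number steps for 96.9% in base 2, against 1.4% in base e and 2.3% in base 10. Signals were therefore recovered as whole steps, exactly for 43.2% of probes, with the lowest value at the floor for 41.0%, at the floor throughout for 13.4% and only approximately for 2.45%. A step was taken as 0.1 and the floor as 5.0, a convention that cancels in every difference. A probe under 29.1 on 1 of 2 arrays gave a bound, and on both gave no difference. Probes with several symbols (55) or none (13794) were left unnamed. A second table held 9 columns whose names match no sample, and they were not used.

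The rule for named genes took all members with every probe, up to 4 genes per pathway list and direction past 2-fold in a comparison, and 3 nearest genes per detected member; not every pathway gene it took is described. Fos and Jun genes short of 2-fold, and Dusp4 and Dusp5 on DoD 36, were added after their values were seen. Members, lists, detection level and yardstick were chosen with earlier results of these data known. Alternatives were another scaling quantile, no scaling, detection at 50 or 100, the mean of a gene's probes, and the deposited values as such. The recovery was tested on simulated data. Python 3.11.15, numpy 2.4.6 and pandas 2.3.3 were used. The number of arrays limits the precision.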

Additional observations from a re-analysis of the deposited data

Results flagged for a closer look

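In 9 of 36 probes with a difference in all 4 comparisons, the members' probes and the brightest probes of the named pathway genes, both RA doses moved the signal one way on DoD 8 and the other way on DoD 36, against vehicle of the same day. With 1 array per condition the difference between days was not tested, and a sign counts here however small the value, so several of these rest on values within the yardstick SD. Both doses of a day were set against the same vehicle array, so their signs are not independent. The share of such probes over the whole array was not counted, and the number is not read as a result about the pathway. The log2 differences are given for R8 and R7 on DoD 8, then for R8 and R7 on DoD 36.

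Dusp6 (probe 5910286) had -0.04 and -0.02, then 0.68 and 1.33, of which the DoD 8 values lie far inside the yardstick SD of 0.21 and turn to 0.56 and 0.22 with the mean of the Dusp6 probes. Etv4 had -0.54 and -1.44, then 0.79 and 1.71, each past its yardstick SD of 0.21 to 0.39. Etv5 had -0.17 and -0.51, then 1.96 and 2.98. Spry1 had -0.62 and -0.01, then 1.55 and 0.91. In the opposite sense, the brightest Dusp4 probe had 0.35 and 0.12, then -0.70 and -0.74. Dusp4 probe 100630110 did not change sign, with 1.05 and 1.24, then 0.27 and 0.41. Mknk1 had 0.25 and 0.12, then -0.87 and -0.31. Rras had 0.23 and 0.03, then -0.68 and -1.01. Fosb had 0.12 and 0.38, then -0.22 and -0.37. Sos1, a dim probe measured as bounds in part, had 0.21 and 1.07, then -0.08 and -0.38.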

How the results depend on the processing

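Of 873 gene values recomputed, 719 moved by less than the yardstick SD, and 153 by more without a called value changing sign. Across all 873 the sign changed in 11, of which 10 were short of 2-fold to begin with, among them Dusp6 with R8 and R7 on DoD 8 (0.56 and 0.22 with the mean of its probes) and Fos for R7 over C on DoD 36 (0.16 without scaling). The only called one was Etv1 for R7 over R8 on DoD 8, which was -0.11 with the mean of its probes. The number of members called held in most settings. From DoD 0 to DoD 2 it was 3 in place of 2 with the deposited values. From DoD 2 to DoD 8 C it was 2 in place of 1 with the mean of the probes and with the deposited values. For R7 against R8 on DoD 8 it was 0 in place of 1 with the 0.75 quantile, without scaling, with a detection signal of 100 and with the deposited values. From DoD 8 C to DoD 36 C it was 2 in place of 4 with a detection signal of 100, 3 without scaling and 5 with the deposited values. On DoD 36, R8 against C gave 0 in place of 1 with a detection signal of 50 or 100, R7 against C gave 2 with the 0.75 quantile and 3 with the deposited values in place of 1, and R7 against R8 gave 0 without scaling, 1 with a detection signal of 100 and 3 with the deposited values in place of 2. Beyond the settings' own construction, the cause was not tested. No paired analysis was possible because there was 1 array per condition, and for the same reason no replicate could be left out. Shc1 and the second Dusp6 probe lie near background on DoD 36, which limits their values.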
